A study of Mus musculus with 6 samples.

Results

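Mss51 and 9 genes of myostatin signalling (Mstn, Fst, Acvr2a, Acvr2b, Acvr1b, Tgfbr1, Smad2, Smad3 and Smad7) were followed through 6 libraries of mouse quadriceps muscle. These 10 genes make up 35 of the 105129 transcript rows and 10 of the 33641 gene symbols of the expression table. Mss51 was chosen by its measured values: in an earlier analysis of the same comparison it led the genes higher in homozygous muscle when these were ordered by p-value. The other 9 genes were selected on their place in the pathway, with results of the comparison known. The group differences of all 10 genes are therefore given as descriptions, with no test.

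Myostatin, the product of Mstn, is a growth factor of the TGF-beta family that skeletal muscle secretes and that restrains muscle growth. It binds the activin type II receptors (Acvr2b and Acvr2a), which recruit a type I receptor (Acvr1b or Tgfbr1), and the type I receptor phosphorylates Smad2 and Smad3. These enter the nucleus with Smad4 and act on target genes, whereas Smad7 blocks the receptors and follistatin, the product of Fst, captures the ligand outside the cell. Mss51 encodes a MYND-type zinc finger protein of skeletal muscle that is found at mitochondria, and it is known for falling when myostatin is inhibited.

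Poly-A selected, stranded RNA libraries came from male littermates of heterozygous parents, 4 months old and sampled near ZT4, which is 4 h after lights on. In the homozygous group, 3 libraries carry on both chromosomes the rs6190 allele, the mouse copy of a human SNP in Nr3c1, the glucocorticoid receptor gene, and in the WT group 3 carry the reference allele on both. All 6 share sex, age, tissue and time of harvest, and the labels name no treatment. The number of founder lines is not stated in these sources. Nr3c1 itself was at 19.5 to 20.01 TPM in homozygous muscle, against 8.07 to 14.8 TPM in WT, and abundance does not show which allele was read.

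Abundance was in TPM, in which a read count is scaled by transcript length and by the total of its library. TPM carries no sequencing depth, so no counting interval can be given, and only the spread between the 3 libraries of a group measures error. The labels do not tie each library to a mouse of its own, so p-values measure the spread between libraries. Fast skeletal muscle was recognisable in every library by its fast-fibre genes, though these do not single out quadriceps. The 10 fast-fibre genes summed to 94674 to 129582 TPM in homozygous and 115679 to 231525 TPM in WT muscle. WT replicate 3 stood apart. Its log2 values correlated with the other libraries across genes at 0.951 to 0.965, whereas pairs without it reached 0.972 to 0.987 (across genes, which do not replicate each other). It had the highest fast-fibre sum, and its slow-fibre sum of 207 TPM compared with 1019 and 1579 TPM in the other WT libraries and 1682 to 9145 TPM in the homozygous ones. Homozygous replicate 2 held the highest slow-fibre sum. The groups did not overlap in this sum, nor in that of the IIa and IIx myosins (1420 to 1981 against 361 to 825 TPM). The part of fibre composition in the differences below was not tested. For some genes, the value with a slow-fibre score as covariate is given beside the difference. In these bulk samples, fewer cells of a type and less RNA per cell cannot be told apart.

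Differences are homozygous minus WT, in log2(TPM + 1). Their standard errors (SE) come from limma, a linear model with moderated variances, fitted to the 11099 genes that reached 1 TPM in 3 libraries or more. The median over all these genes was 0.26, so each difference is also given relative to that median. In limma no gene of the 11099 passed a Benjamini-Hochberg adjusted p of 0.05 (0%), and 0.107 was the lowest value reached (810 genes passed when limma weighted the libraries by quality, which gave WT replicate 3 the lowest weight, 0.199). Without adjustment, limma gave 2697 genes a p under 0.05, of which those higher in homozygous muscle were 23.7% of the tested genes and those lower 0.55%. That split depended on the scaling: median centring gave 917 such genes, of which 405 were higher, quantile normalization 986, of which 504 were higher, and removal of a transcript length trend 894, of which 477 were higher. With the slow-fibre score as covariate there were 656, of which 595 were higher. The groups did not overlap, with homozygous higher, for 34.7% of all genes tested, and with homozygous lower for 0.73%.

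The upstream sequences of 3 of the 10 genes are shown first, for what they hold of the letters that Smad proteins bind. Mss51 and Mstn are shown as the muscle genes of the set, and Acvr1b as a receptor with a promoter of another base composition. They are the 250 bases before the RefSeq start site on GRCm38.p6, read 5′ to 3′ on the strand of the gene. Capitals mark the palindrome GTCTAGAC or the 5-base element CAGAC, on either strand.
Mss51, chr14:20496902-20497151, minus strand: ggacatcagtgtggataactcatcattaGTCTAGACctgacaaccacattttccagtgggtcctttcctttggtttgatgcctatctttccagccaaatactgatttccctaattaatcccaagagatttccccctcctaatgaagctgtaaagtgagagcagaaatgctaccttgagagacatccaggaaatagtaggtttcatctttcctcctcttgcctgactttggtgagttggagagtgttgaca
Mstn, chr1:53061390-53061639, plus strand: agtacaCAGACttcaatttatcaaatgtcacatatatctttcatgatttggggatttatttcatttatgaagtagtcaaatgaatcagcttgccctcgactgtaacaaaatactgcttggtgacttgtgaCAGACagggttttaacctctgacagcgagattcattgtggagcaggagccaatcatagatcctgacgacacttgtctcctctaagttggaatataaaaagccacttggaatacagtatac
Acvr1b, chr15:101173822-101174071, plus strand: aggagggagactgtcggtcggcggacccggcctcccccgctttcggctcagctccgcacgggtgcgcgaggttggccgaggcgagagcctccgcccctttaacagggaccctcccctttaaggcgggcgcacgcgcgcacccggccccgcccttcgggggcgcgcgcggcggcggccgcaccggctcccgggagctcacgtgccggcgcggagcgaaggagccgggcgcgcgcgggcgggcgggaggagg

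The Mss51 sequence held GTCTAGAC, spanning bases 222 to 215 before the start site. These 8 letters occurred in 55 of 32851 promoter windows of the same length (0.167%). They were absent from the windows of the 6 other genes of the set that were searched (Mstn, Acvr2a, Acvr2b, Acvr1b, Tgfbr1 and Smad3). The motifs were chosen after the Mss51 sequence had been seen. A match of letters is not a measured binding site. CAGAC occurred at 2 places in the Mstn window and at 1 in those of Acvr2a, Acvr2b and a Tgfbr1 start. It occurred at 0 places in the Mss51, Acvr1b and Smad3 windows, and 42.2% of all windows held at least 1. The E-box CANNTG, bound by myogenic factors, matched at 4 places upstream of Mstn and at 1 upstream of Acvr1b and of a Tgfbr1 start. It matched at 0 places upstream of Mss51, Acvr2a, Acvr2b and Smad3, and 66.2% of all windows held it. The letters TGTTCT of the glucocorticoid response element, searched on both strands like the others, matched in none of the 7 genes and in 16.1% of all windows. A TATAAA box lay 29 to 24 bases before the Mstn start, a motif found in 12.4% of windows. The Mss51 and Mstn windows had 0 and 3 CpG dinucleotides, against 42 for Acvr1b and a median of 6 over all windows.

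Mss51 was the most abundant of the 10 genes in every library, and its difference in log2(TPM + 1) was the largest of the 10, although Fst had the larger ratio of means (4.23 against 4.05). It lies on chromosome 14 (20482867 to 20496901, minus strand, GRCm38), where GENCODE M21 places no overlapping gene, and it has a single row in the table, a protein-coding transcript of 7 exons and 1826 nt. It measured 283, 334 and 378 TPM in homozygous replicates 1, 2 and 3, and 68.4, 108 and 69.5 TPM in WT replicates 1, 2 and 3; values of other genes are given in this order. The lowest homozygous library thus lay above the highest WT library. Mean levels were 332 ± 47.3 TPM and, in WT, 81.8 ± 22.3 TPM (SD, n = 3 each), a ratio of 4.05. The log2 difference of 2.03 (SE 0.21) lay 1.76 above the all-gene median. By level, Mss51 was in place 332, 301 and 266 of the 11099 genes in the homozygous libraries, and in WT 1006, 653 and 973. This order within a library does not depend on how libraries are scaled to each other.

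The difference of Mss51 kept its sign in all 15 alternative fits, from 1.73 after median centring to 2.24 without WT replicate 2. With the slow-fibre score as covariate it was 1.91 (SE 0.27), and without WT replicate 3 it was 1.93. WT replicate 3, the library with the most fast-fibre RNA, had a Mss51 level next to that of WT replicate 1. Relative to Mstn in the same library, Mss51 was 11.4, 18.7 and 13.5 times as abundant in homozygous muscle, against 2.59, 3.47 and 2.79 times in WT.

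**Figure D1:**
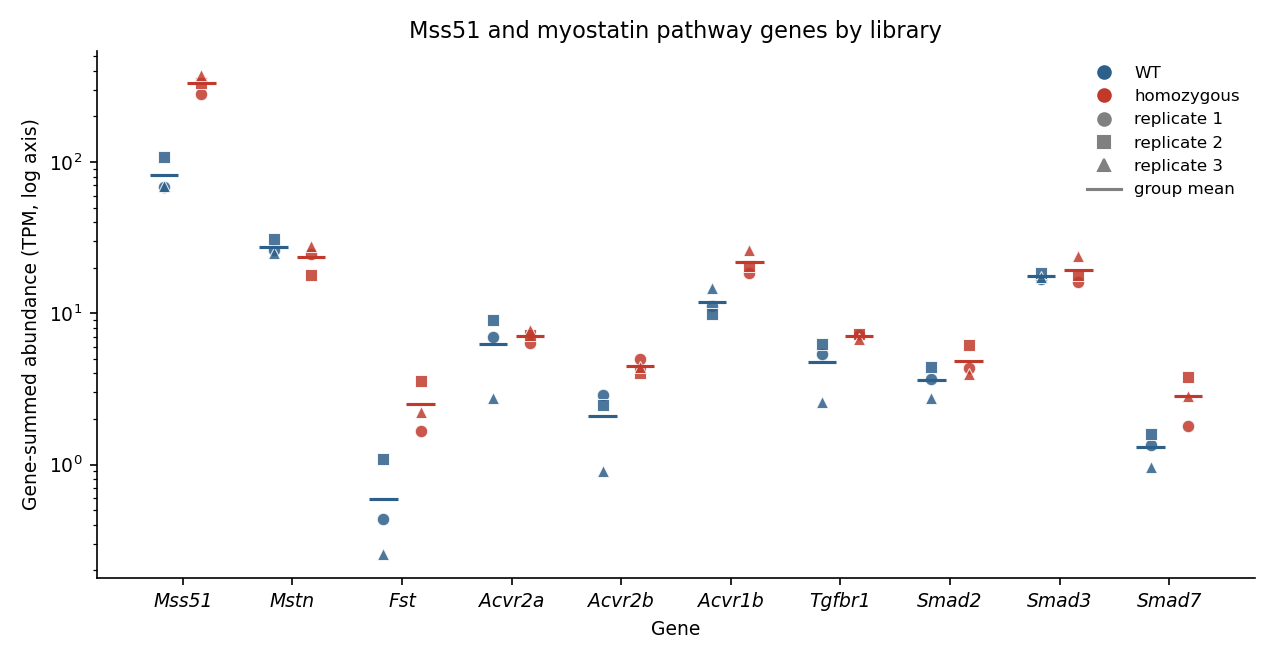
Gene-summed abundance (TPM, log axis) of the 10 genes in each library. Blue marks are WT and red marks homozygous mice, the symbol gives the replicate and the bar the group mean (n = 3). Mss51 lies above the other 9 genes in every library, at 283 to 378 TPM in homozygous and 68.4 to 108 TPM in WT muscle, and Mstn overlaps between the groups.

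Mstn, the ligand, was the next most abundant member in WT muscle and was no higher in the homozygous mice. It measured 24.8, 17.9 and 28.0 TPM in homozygous muscle, against 26.4, 31.0 and 25.0 TPM in WT. The groups overlapped, and homozygous replicate 2 was the lowest library. Mean levels were 23.5 ± 5.17 TPM and, in WT, 27.4 ± 3.18 TPM (SD, n = 3 each), a log2 difference of -0.23 (SE 0.18), which is -0.50 relative to the all-gene median. On log2 values minus the median of each library, Mstn was at 1.498, 0.96 and 1.63 in homozygous muscle, against 1.78, 1.98 and 1.93 in WT. On that scale the groups did not overlap and the homozygous libraries were lower, by 0.53. The sign was negative in all 15 alternatives, from -0.53 to -0.053. The gene (chromosome 1, 53061640 to 53068079, plus strand) has 2 protein-coding rows, of which ENSMUST00000027269 held 97.8% to 100% of the sum.

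Fst, whose product follistatin binds and neutralises myostatin and activins, was the least abundant member. It was at 1.67, 3.59 and 2.23 TPM in homozygous muscle, against 0.435, 1.08 and 0.257 TPM in WT. Every homozygous library was above every WT library, with homozygous replicate 2 and WT replicate 2 the highest of their groups. Mean levels were 2.50 ± 0.991 TPM and, in WT, 0.590 ± 0.433 TPM (SD, n = 3 each), a ratio of 4.23 and a log2 difference of 1.13 (SE 0.27), or 0.87 above the median. At these levels the result depends on the pseudocount and on the fibre score: the difference was 2.03 with a pseudocount of 0.1 and 0.71 with the slow-fibre score as covariate. Fst reached 1 TPM in 4 libraries, 3 of them homozygous, so it entered the fit mainly through the group in which it was higher. Per TPM of Fst there were 14.9, 4.97 and 12.5 TPM of Mstn in homozygous muscle, against 60.5, 28.7 and 97.3 in WT. The lowest WT ratio was above the highest homozygous ratio.

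Of the type II receptors, Acvr2b was higher in homozygous muscle and Acvr2a overlapped. Acvr2b, the main receptor for myostatin, was at 5.01, 4.03 and 4.42 TPM in homozygous muscle, against 2.90, 2.46 and 0.911 TPM in WT. WT replicate 3 was the lowest library, and the groups did not overlap with or without it, but the log2 difference given next was 0.57 without it and 0.51 with the slow-fibre score. Mean levels were 4.49 ± 0.493 TPM and, in WT, 2.09 ± 1.05 TPM (SD, n = 3 each), a log2 difference of 0.89 (SE 0.27), or 0.62 above the median. Acvr2a was at 6.33, 7.16 and 7.79 TPM in homozygous muscle, against 6.93, 8.96 and 2.76 TPM in WT. WT replicate 2 was the highest library and WT replicate 3 the lowest. Its log2 difference of 0.27 (SE 0.33) equalled that of the median gene to within 0.01. The difference was negative in 5 of 15 alternatives, among them -0.30 with the slow-fibre score. Acvr2a was 1.26, 1.78 and 1.76 times as abundant as Acvr2b in homozygous muscle, against 2.39, 3.64 and 3.03 times in WT, with no overlap of the groups.

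Of the type I receptors, Acvr1b, which serves activins and myostatin, was the more abundant. It has a single row, of 4418 nt (chromosome 15, 101174067 to 101213684, plus strand). It measured 18.5, 20.4 and 26.2 TPM in homozygous muscle, against 11.2, 9.90 and 14.8 TPM in WT, with no overlap. Here WT replicate 3 was the highest WT library, unlike for the other receptors. Mean levels were 21.7 ± 4.00 TPM and, in WT, 12.0 ± 2.52 TPM (SD, n = 3 each), a log2 difference of 0.81 (SE 0.19), or 0.55 above the median. It was 0.51 after median centring, when the groups overlapped, and rose to 1.03 with the slow-fibre score as covariate. Tgfbr1, the type I receptor of TGF-beta, was at 7.13, 7.32 and 6.73 TPM in homozygous muscle, against 5.37, 6.23 and 2.58 TPM in WT. The groups did not overlap, and the homozygous libraries lay close together (7.06 ± 0.300 TPM) while WT varied (4.73 ± 1.91 TPM; SD, n = 3 each). The log2 difference was 0.56 (SE 0.26), or 0.29 above the median, but 0.25 without WT replicate 3 and 0.12 with the slow-fibre score as covariate.

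The receptor-regulated Smads carry the signal to the nucleus, and neither separated the groups. Smad3 was the more abundant, at 16.1, 18.0 and 23.9 TPM in homozygous muscle, against 16.7, 18.5 and 17.4 TPM in WT. WT varied little (17.5 ± 0.902 TPM; SD, n = 3), and homozygous replicates 1 and 3 bounded the range. Its log2 difference was 0.12 (SE 0.17), which is -0.15 relative to the median, and 4 of 15 alternatives gave a negative value. Smad2 was at 4.36, 6.14 and 3.99 TPM in homozygous muscle, against 3.65, 4.44 and 2.74 TPM in WT, with overlap and a log2 difference of 0.34 (SE 0.21), or 0.07 above the median. Its sign changed in 2 of 15 alternatives, to -0.011 with the slow-fibre score and -0.044 with a transcript length trend removed.

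Smad7, the inhibitory Smad that the pathway itself induces, was at 1.79, 3.81 and 2.86 TPM in homozygous muscle, against 1.34, 1.60 and 0.966 TPM in WT. The groups did not overlap, though homozygous replicate 1 was close to WT replicate 2. Mean levels were 2.82 ± 1.01 TPM and, in WT, 1.30 ± 0.317 TPM (SD, n = 3 each), a log2 difference of 0.70 (SE 0.23), or 0.44 above the median. It was 0.34 with the slow-fibre score and 0.36 with a transcript length trend removed.

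Taking the 10 genes as a set, the groups did not overlap for 6 (Mss51, Fst, Acvr2b, Acvr1b, Tgfbr1 and Smad7), all with homozygous higher, beside 34.7% of all genes. The same 6 were separated without WT replicate 3, when the share over all genes was 42.1%. After median centring 3 remained higher (Mss51, Fst and Acvr2b) and 1 was lower (Mstn), beside 6.79% and 8.38% of all genes. The median log2 difference of the set was 0.63, against 0.26 over all genes tested. All 10 passed the filter on low values, and since this contrast chose the leading gene, these counts are descriptions only.

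**Figure D2:**
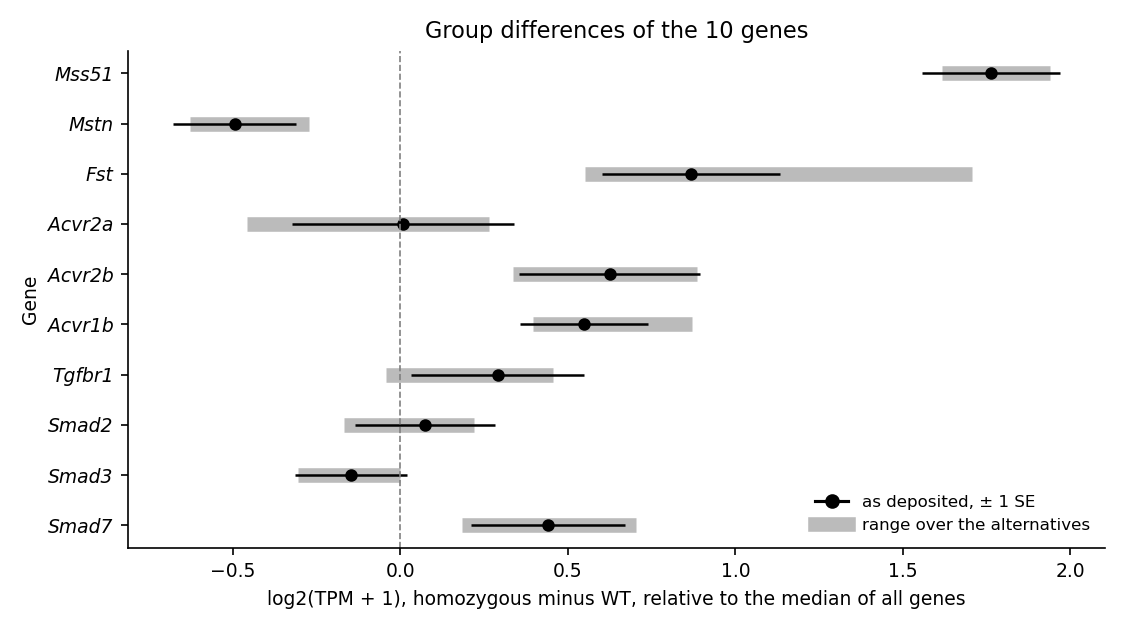
Difference in log2(TPM + 1), homozygous minus WT, relative to the median of all genes (dashed line at 0), for the 10 genes. Points are the values from TPM as deposited with 1 SE, and grey bars span the 15 alternative fits. Mss51 stands at 1.76 with a narrow range, Mstn at -0.50, and the bars of Acvr2a, Smad2 and Tgfbr1 cross 0.

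By level, the order in WT muscle was Mss51, Mstn, Smad3, Acvr1b, Acvr2a, Tgfbr1, Smad2, Acvr2b, Smad7 and Fst. The first 4 were each above the next gene in every WT library. From Acvr2a down, neighbours in the order overlapped. In homozygous muscle the order was the same except that Acvr1b stood before Smad3, and Mstn, Acvr1b and Smad3 overlapped there.

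Isoforms were next compared for the genes with several rows. Of the 35 rows, 29 were above 0 in some library and 10 passed the filter of 1 TPM in 3 libraries. Among all 21165 isoforms tested, 0.0425% passed an adjusted p of 0.05 in limma (9 isoforms). The groups did not overlap for 25.6% of them with homozygous higher and for 2.11% with homozygous lower. Of the 10 isoforms of the set, 7 had groups that did not overlap, all with homozygous higher, and 3 of these are the only rows of Mss51, Fst and Acvr1b. How reads were divided between isoforms is not stated in these sources, and rows below 1 TPM are uncertain.

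Acvr2b was spread over 6 rows. Its main row, the protein-coding ENSMUST00000215746 (11 exons, 3175 nt), was at 2.35, 1.73 and 2.03 TPM in homozygous muscle, against 1.57, 1.13 and 0.471 TPM in WT, with no overlap. It made up 45.3% of the gene in homozygous and 50.5% in WT muscle on average. Rows annotated as retained introns held most of the rest in 5 libraries and were listed at 0 in WT replicate 3. Counting only the protein-coding rows, Acvr2b was at 2.93, 2.65 and 2.63 TPM against 1.71, 1.23 and 0.911 TPM, which again did not overlap. The coding share was 58.5%, 65.7% and 59.4% in homozygous muscle, against 59.0%, 49.8% and 100% in WT.

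Acvr2a had a non-coding row (ENSMUST00000156681, 1252 nt) at 1.499 and 1.40 TPM in homozygous replicates 1 and 2, with 0.103 TPM in WT replicate 1 and a listed 0 in the other 3 libraries. Without it, the coding Acvr2a row was at 4.83, 5.75 and 7.79 TPM in homozygous muscle, against 6.83, 8.96 and 2.76 TPM in WT. The main Tgfbr1 row (ENSMUST00000007757) was at 5.69, 5.80 and 5.83 TPM against 4.61, 5.69 and 2.52 TPM. The lowest homozygous and the highest WT value of this row are equal to 3 digits, and the wider gap between the gene sums comes from its minor coding rows.

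The rows of Smad2 differed in share between libraries. Its longest row, ENSMUST00000168423 (8089 nt), was at 3.55, 2.52 and 3.61 TPM in homozygous muscle, against 2.39, 2.26 and 1.79 TPM in WT. These did not overlap, although the gene sums did. The row held between 41.1% (homozygous replicate 2) and 90.6% (homozygous replicate 3) of the gene. A second row of 2410 nt ranged from under 0.001 to 1.51 TPM with no order by group. Of Smad7, ENSMUST00000026999 (4278 nt) held 72.0% to 100%, and of Smad3, ENSMUST00000034973 (5090 nt) held 96.1% to 100%.

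**Figure D3:**
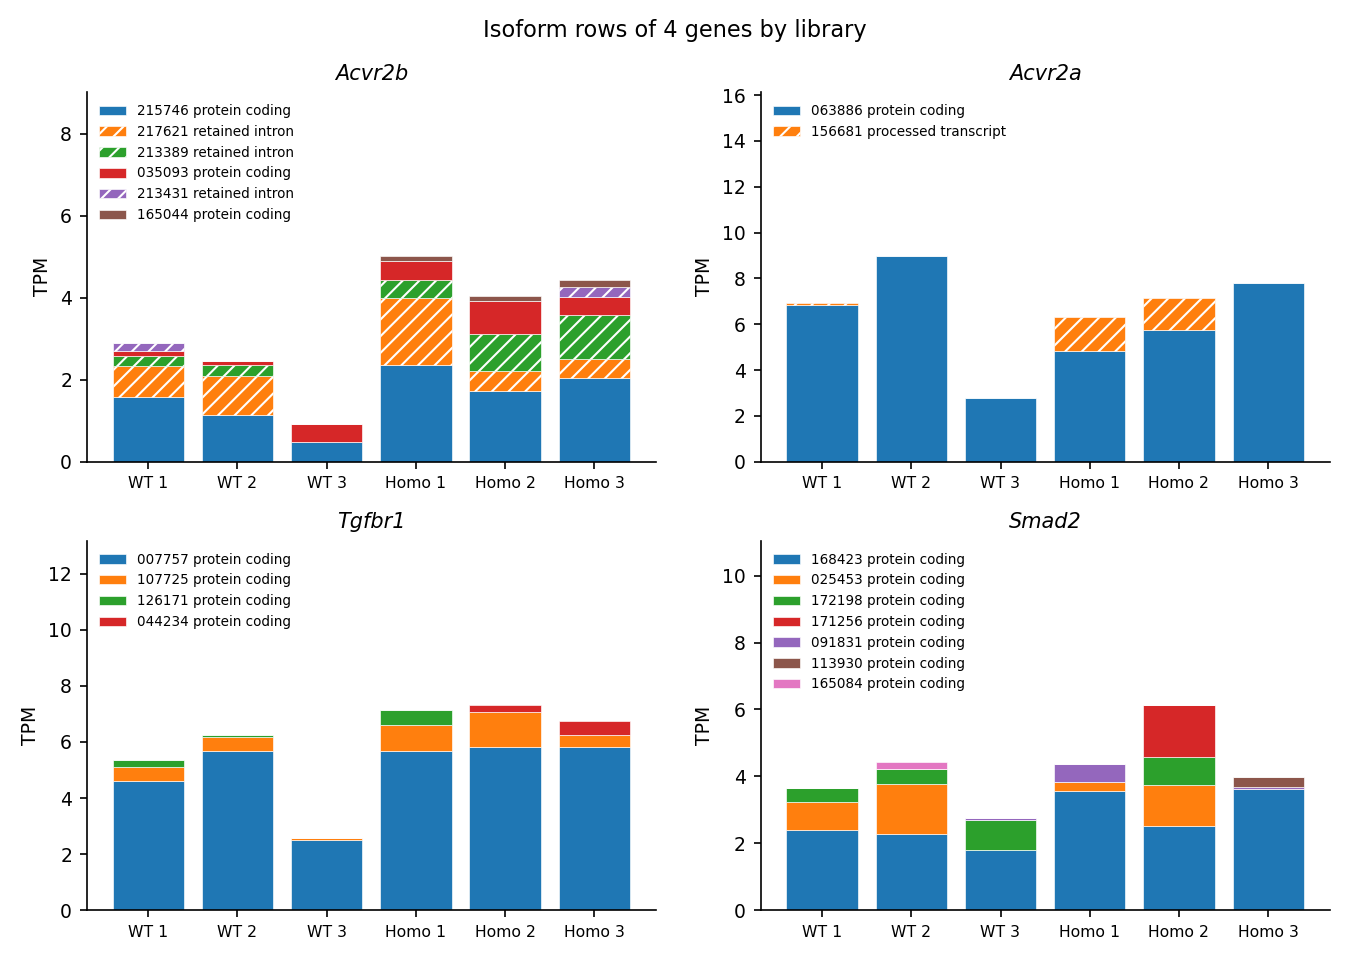
Abundance (TPM) of each transcript row of Acvr2b, Acvr2a, Tgfbr1 and Smad2, stacked by library, with the last 6 digits of the Ensembl transcript number and its annotated type. Hatched parts are rows that do not code for protein. The main Acvr2b row is at 1.73 to 2.35 TPM in homozygous and 0.471 to 1.57 TPM in WT libraries, and the makeup of Smad2 varies within both groups.

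The other genes of the pathway were taken from a list of 45, of which 35 passed the filter. In limma 0 of the 35 had an adjusted p under 0.05 (smallest 0.168; 5 with library weights), and 14 had an unadjusted p under 0.05, all higher in homozygous muscle (40.0%, beside 23.7% of all genes). The 14 became 2 with quantile normalization or median centring, 1 with the length trend removed and 3 with the slow-fibre score. The groups did not overlap for 20, all with homozygous higher (57.1%, beside 34.7%). This count moved with the scaling of the libraries: after median centring the groups were separated for 6 of the 35 with homozygous higher (17.1%, beside 6.79%) and for 1, Ski, with homozygous lower. The median log2 difference of the 35 genes was 0.41, or 0.15 above that of all genes.

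Among ligands, 5 of 7 were tested and 0 passed. Of the 5, 2 had groups that did not overlap on the scale as deposited (40.0%, beside 34.7% of all genes). Gdf11, the closest relative of myostatin, overlapped between groups at 3.33 ± 0.826 and 3.59 ± 1.19 TPM (SD, n = 3 each). Tgfb3 was 12.3 ± 1.16 against 8.87 ± 2.76 TPM, a log2 difference of 0.47 (SE 0.22; limma, adjusted p 0.231), but 0.046 with the slow-fibre score. Inhbb, an activin subunit, lay below the filter at 0.0304 to 0.362 TPM over all libraries.

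Of the processing and binding proteins, 7 of 12 were tested, and 6 of these had groups that did not overlap on the scale as deposited (85.7%, beside 34.7% of all genes). Ltbp1 and Ltbp3, which hold latent ligands in the matrix, were 4.02 ± 0.448 against 2.20 ± 0.503 TPM and 15.6 ± 2.74 against 10.2 ± 0.725 TPM (SD, n = 3 each). Their log2 differences were 0.66 (SE 0.18) and 0.56 (SE 0.16), and limma gave both an adjusted p of 0.168. After median centring the differences were 0.36 and 0.25. Fstl3, a relative of follistatin, was below the filter at 0.490 to 1.54 TPM.

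Of the receptors, 6 of 7 were tested. Tgfbr2, the type II receptor of TGF-beta, was 6.72, 9.58 and 7.90 TPM in homozygous muscle, against 4.86, 4.41 and 2.18 TPM in WT. Its log2 difference was 0.95 (SE 0.25; limma, adjusted p 0.168), but 0.42 with the slow-fibre score. The BMP receptors Bmpr1a (18.4 ± 0.930 against 11.6 ± 3.85 TPM) and Acvr1 (7.82 ± 1.08 against 5.14 ± 1.71 TPM; SD, n = 3 each) also had groups that did not overlap. Their adjusted p was 0.172 and 0.200 in limma, for log2 differences of 0.68 and 0.56 that were 0.298 and 0.23 with the slow-fibre score.

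The Smads and their regulators held 11 tested genes of 13, of which 9 had groups that did not overlap on the scale as deposited (81.8%, beside 34.7% of all genes). Skil, a repressor of Smad-driven transcription that TGF-beta itself induces, differed most: 1.71, 4.62 and 5.26 TPM in homozygous muscle, against 1.39, 1.49 and 0.873 TPM in WT. Its log2 difference was 1.03 (SE 0.32; limma, adjusted p 0.168), but 0.65 with the slow-fibre score. Smad4, the partner of Smad2 and Smad3, was 21.1 ± 1.33 against 14.8 ± 3.79 TPM, and the BMP Smads Smad1 and Smad5 were 4.30 ± 0.529 against 2.73 ± 0.308 and 7.36 ± 0.539 against 4.56 ± 1.32 TPM (SD, n = 3 each). Smad6, the inhibitory Smad of the BMP branch, was 2.50 ± 0.762 against 1.32 ± 0.305 TPM. The limma adjusted p-values of these 4 genes ran from 0.168 to 0.178, and after median centring their log2 differences ran from 0.21 to 0.31.

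The 6 response genes of TGF-beta and BMP on the list (Ctgf, Tgfbi, Cdkn1a, Id1, Id2 and Id3) were all tested, and the groups overlapped for each of them (0%, beside 34.7% of all genes). None had an unadjusted p under 0.05 in limma, which does not show that they were alike. Their median log2 difference was 0.46, or 0.196 above that of all genes, and 4 of the 6 were above the all-gene median. Ctgf, a matrix-associated growth factor gene, was 9.57, 14.5 and 13.5 TPM in homozygous muscle, against 10.8, 9.73 and 4.88 TPM in WT. Smad7 and Skil, which the pathway also induces, are counted under other roles. Their groups did not overlap on the scale as deposited, with homozygous higher.

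**Figure D4:**
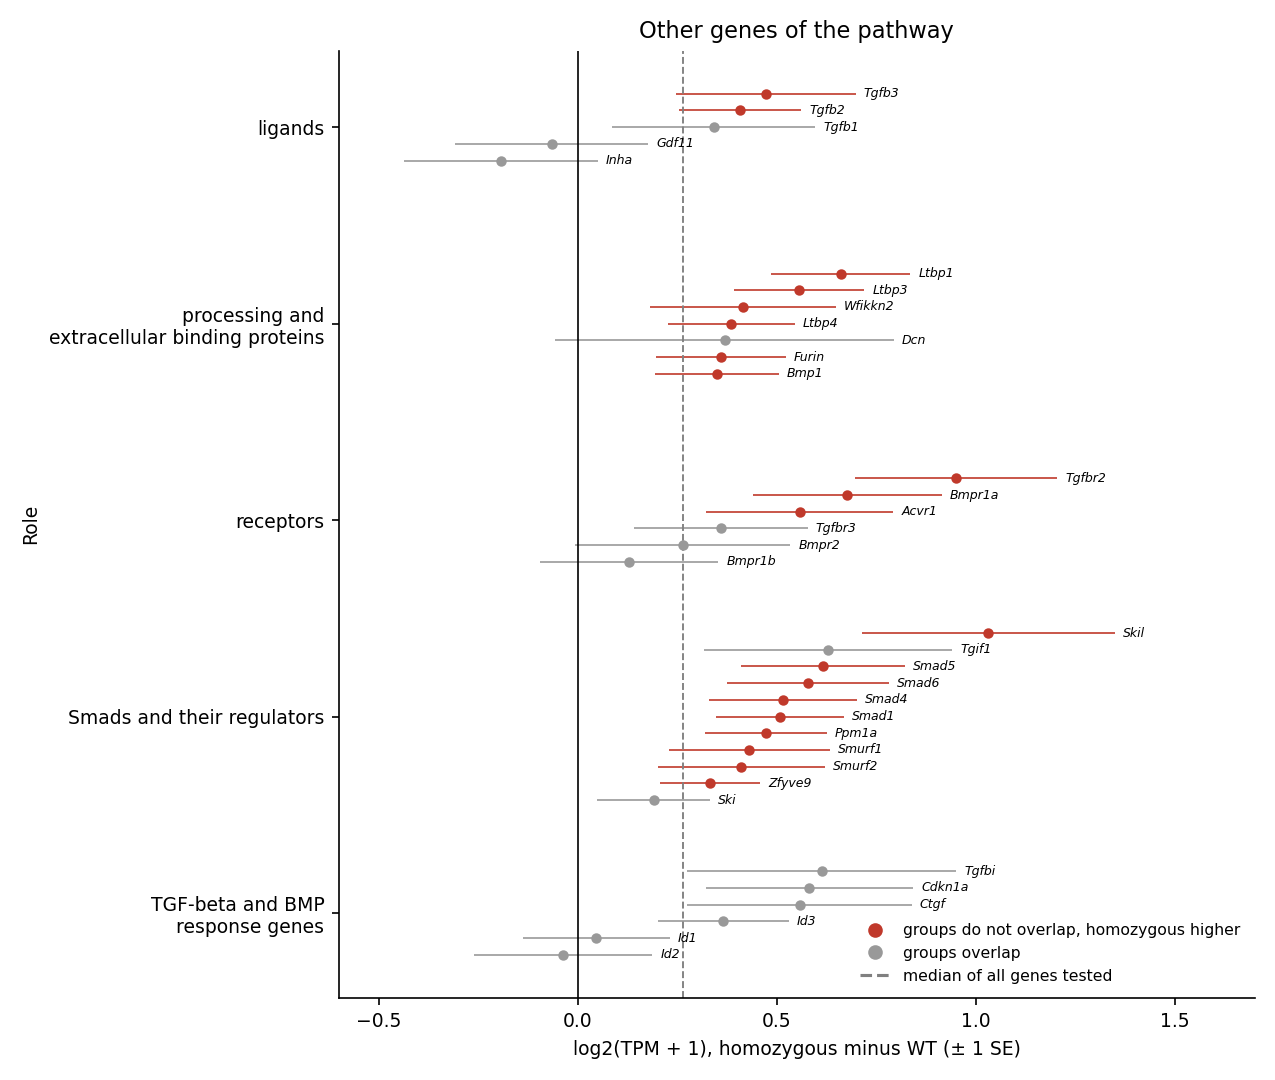
Difference in log2(TPM + 1), homozygous minus WT, with 1 SE, for the 35 tested genes of the pathway outside the set of 10, by role. Red points have groups that do not overlap (20 genes, all higher in homozygous muscle), grey points overlap, and the dashed line is the median of all genes, 0.26. The 6 response genes overlap between the groups.

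Markers of other cells were read beside these results. Fibroblast markers, of cells that also use this pathway, summed to 40.8 to 54.2 TPM in homozygous and 30.3 to 68.3 TPM in WT libraries, with 0 of 5 separated. Endothelial markers (29.1 to 34.3 against 23.3 to 32.8 TPM) overlapped as well, with 1 of 4 separated. Satellite cell markers did not overlap in their sum (10.7 to 14.6 against 6.12 to 10.3 TPM), with 1 of 4 separated and Pax7 and Myf5 under 1 TPM in every library. Schwann cell markers did not overlap either (14.4 to 69.9 against 7.66 to 12.0 TPM), and all 4 were separated. Over all genes tested, the groups did not overlap with homozygous higher for 34.7%, and the marker counts include genes below the filter. Adipocyte and immune sums overlapped and reached at most 5.78 and 6.48 TPM, and blood markers overlapped at 476 to 851 TPM. Their part in the differences was not tested.

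The protein-coding neighbours of Mss51 were compared to see whether the difference extends along the chromosome. Of the 5 on each side, 9 passed the filter. In limma 0 of 9 had an adjusted p under 0.05 (smallest 0.168; 1, Anxa7, with library weights), 3 had an unadjusted p under 0.05 (Anxa7, Dnajc9 and Fam149b; 33.3%, beside 23.7% of all genes), and 4 had groups that did not overlap (44.4%, beside 34.7%). The 3 became 1 with quantile normalization, median centring or the length trend removed, and 0 with the slow-fibre score. Anxa7, a calcium-dependent membrane-binding protein, is the next gene downstream on the same strand, 2.73 kb beyond the end of Mss51. It was 49.0, 71.7 and 90.8 TPM in homozygous muscle, against 38.0, 44.0 and 34.8 TPM in WT, with a log2 difference of 0.80 (SE 0.22; limma, adjusted p 0.168), or 0.54 above the median gene. On the upstream side, Ppp3cb, a catalytic subunit of calcineurin 2.46 kb away, overlapped at 97.8 ± 6.25 and 89.4 ± 22.8 TPM (SD, n = 3 each; log2 difference 0.16, SE 0.20). Dnajc9, Fam149b and Sec24c had groups that did not overlap, with log2 differences of 0.32, 0.39 and 0.20, the last negative after quantile normalization, median centring or removal of the length trend. Myoz1, a Z-disc gene of fast fibres, was the neighbour with a negative value, -0.26 (SE 0.24).

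**Figure D5:**
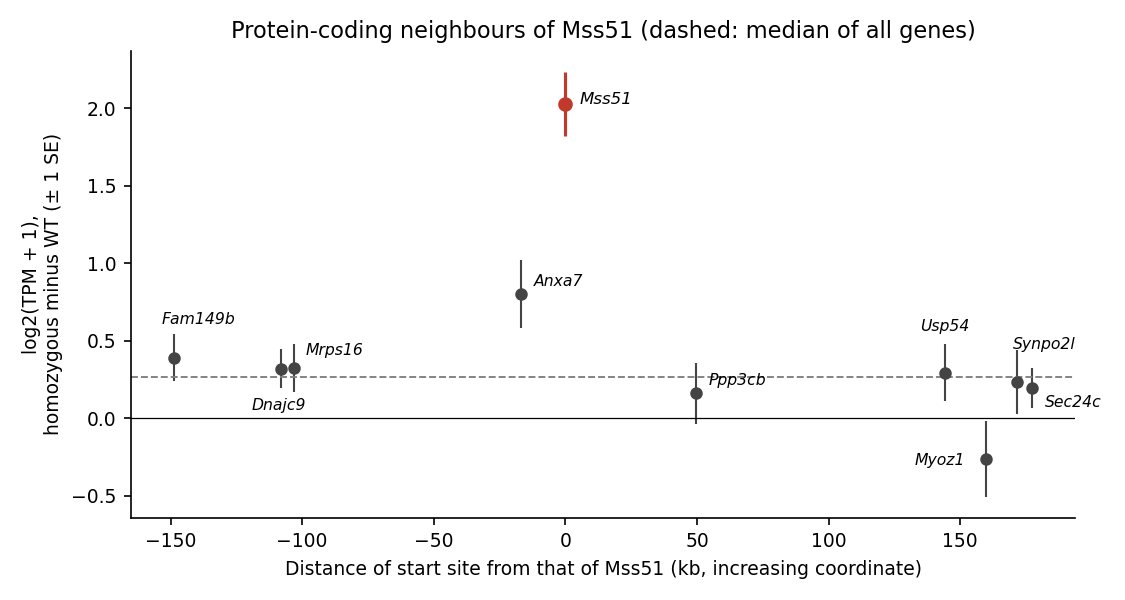
Difference in log2(TPM + 1), homozygous minus WT, with 1 SE, of Mss51 (red) and its 9 tested protein-coding neighbours, against the distance between start sites in kb. The dashed line is the median of all genes, 0.26. Mss51 is at 2.03, Anxa7 at 0.80 and the other 8 lie between -0.26 and 0.39.

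Finally, the genes whose profile over the 6 libraries was most like that of Mss51 were listed among the 4780 genes with a mean of at least 10 TPM. Likeness was the root mean square difference of log2(TPM + 1), each gene centred on its own mean. Such a distance includes the group difference, by which Mss51 was chosen. The 5 nearest were Net1 (0.40), Srxn1 (0.45), Myh1 (0.45), Mybpc1 (0.46) and Ptpn3 (0.48), beside a median of 0.94 over all genes. Myh1 is the IIx fast myosin and Mybpc1 the slow-type myosin binding protein. Mss51 per TPM of Myh1 was 0.239, 0.266 and 0.401 in homozygous muscle, against 0.147, 0.342 and 0.291 in WT, which overlapped. Per TPM of Myh4, the IIb myosin, it was 0.0420, 0.0799 and 0.0757 against 0.0104, 0.0189 and 0.00483, which did not. These myosin ratios were chosen after the values were seen.

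When each gene was centred within its group, so that only the spread between libraries of the same genotype counted, other genes came nearest to Mss51: Atxn2 (0.06), Rrbp1, Crip1, Prelid3b and Hspb8 (0.08), beside a median of 0.29. Myh1 was then at 0.43, beyond that median, and so was Acvr1b at 0.35. Mstn was at 0.24 and Smad3 at 0.18. For Mstn itself, the 5 nearest over the 6 libraries were Tmem233 (0.10), Bmyc, Nt5dc3, Ube2d1 and Prrg2 (0.15), beside a median of 0.37. Mss51 was at 1.15, a distance that includes the group difference by which it was chosen. Within groups the 5 nearest to Mstn were Nt5dc3 (0.07), Fance, Pex14, Nrbf2 and Uspl1 (0.09). Mss51 was then at 0.24, beside a median of 0.27.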

How the data were processed

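RNA-seq of quadriceps muscle from 3 homozygous and 3 WT libraries was analysed, and groups and replicate numbers were taken from the sample titles. The authors deposited TPM values per Ensembl transcript in 1 table holding a column for every library, and each column summed to 1000000. The submitters' processing notes name FastQC, Trimmomatic, HISAT2, kallisto and the build mm10, with no version or role. All 6 columns matched a sample title and 0 were left over. TPM depends on everything else in the library: mitochondrial transcripts took 14.3% to 33.9% of it, and a larger share of any abundant class lowers all other genes.

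Rows were summed per gene symbol, transformed to log2(TPM + 1) and filtered at 1 TPM in at least 3 libraries. The fit was limma 3.58.1 in R 4.3.3, with its trend and robust options, 1 term for genotype and Benjamini-Hochberg adjustment over all features tested. The same fit was also run on simulated data, drawn with no shift shared by all genes and no outlying library. TPM values are not counts, so no count model was used. Positions, types and lengths came from GENCODE M21 (GRCm38), to which 103723 of 105129 transcripts matched by number, and promoters from a RefSeq table (GRCm38.p6) that held 7 of the 10 genes. Python 3.11.15, numpy 2.4.6, pandas 2.3.3 and matplotlib 3.10.9 were used.

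The 10 genes and the lists were chosen with earlier results of these data known. Genes outside the 10 were named by rule: 6 fixed pathway genes, the 8 tested ones with the largest difference among those whose groups do not overlap, neighbours of Mss51 with such groups, and the 5 nearest profiles. Where others are named (Ski, Ppp3cb, Myoz1, the response genes), they were chosen after their values were seen. Of the pathway list first drawn up, 1 gene is not reported here and is left out of its counts. Alternatives were quantile normalization, median centring, mitochondrial transcripts left out, no filter, a pseudocount of 0.1, each library left out, array weights, blocking on the replicate number, a slow-fibre score as covariate and a transcript length trend removed (loess, span 0.5).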

Additional observations from a re-analysis of the deposited data

How the results depend on the processing

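With 3 libraries a group and no depth in TPM, small differences of genes at a few TPM could not be resolved. Of 10 genes, 7 kept the sign of their difference in all 15 alternatives, while Acvr2a, Smad3 and Smad2 changed it in 5, 4 and 2. Among the alternatives, the replicate block and no filter leave each group difference as it was, so they could not change a sign. Mss51 was 1.73 with median centring, which takes out the shift shared by all genes. Leaving out each library gave 1.92 to 2.24 for Mss51. The all-gene median of 0.26 was -0.037 with median centring, -0.007 with quantile normalization and -0.011 with the length trend removed.

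Genes past the threshold numbered 0, but 810 with array weights, and 0 to 2 without each library (2 without WT replicate 1 and 1 without WT replicate 2). Pathway genes outside the set numbered 0, but 5 with array weights (Tgfbr2, Ltbp1, Ltbp3, Skil and Smad1), and neighbours of Mss51 0, but 1 (Anxa7). Array weights gave WT replicate 3 the lowest weight, and the cause of the rise was not tested. Isoforms numbered 9, but 3 with quantile normalization, 5 with median centring, 5 when mitochondrial transcripts were removed, 0 with no filter, 4 with a pseudocount of 0.1, 14 with array weights, 0 with the slow-fibre score, 3 with the length trend removed, and 0 to 36 without each library (36 without WT replicate 1, 1 without homozygous replicate 3, and 0 without homozygous replicate 1 or 2 or WT replicate 3). Pathway genes with groups that do not overlap numbered 20, but 7 with median centring, an alternative chosen after seeing the data, as was leaving out WT replicate 3 for these counts.

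Directions changed for Gdf11 (0.077 without homozygous replicate 2, 0.10 without WT replicate 2, and -0.28 to 0.10 over all libraries left out) and Sec24c (-0.085 with quantile normalization, -0.11 with median centring, -0.16 with the length trend removed). With the replicate block, 0 genes, 0 isoforms, 0 pathway genes and 0 neighbours passed. Mss51 was 2.03, a value that blocking cannot change in this balanced design. Deviations of same-numbered libraries correlated at -0.071, 0.061 and -0.013, and those of differently numbered libraries at -0.14 to 0.13. With 3 libraries a group, these values cannot settle whether the numbers pair the libraries.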
